A study of Homo sapiens with 16 samples.

Results

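The genes described here encode the enzymes that make serine, pass its carbon into folate, and build the pyrimidine, purine and deoxynucleotide precursors of RNA and DNA. All 33 listed symbols were found in both expression tables, 33 of 17318 genes in the table of the first experiment and 33 of 18168 in that of the second, each with a single row. They were matched by symbol. The study placed luciferase-bearing U87 cells, a long-established human glioblastoma line labelled wild type here, in the brains of nude mice, which lack T cells. Its agents were exosomes, small vesicles released by cells, made by what the labels call MSC and carrying either a MYC siRNA (human sequence) or a scramble control. The 16 libraries, each from its own mouse, fall into 3 Myc1 and 4 Scr1 tumours (MYC and scramble siRNA number 1, experiment 1) and 5 Myc2 and 4 Scr2 tumours (number 2, experiment 2); every group received exosomes, and untreated tumours were not analysed here. In experiment 1 dosing started on day 28 after implantation, with 1e9 exosomes in 100 µl injected behind the eye every other day. The schedule of experiment 2 and the ages of the mice were not found in the labels. Tumours were collected when each mouse reached its endpoint, so the day of sampling could differ between mice.

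Serine is made from a glycolytic intermediate by PHGDH, PSAT1 and PSPH, and SHMT enzymes move one of its carbons onto folate. The MTHFD enzymes interconvert the loaded folates, which feed purine rings and the methyl group of thymidylate. MYC, a transcription factor and the target of both siRNAs, is known to bind many genes of nucleotide synthesis, and ATF4, the effector of the integrated stress response, is known to drive the serine and mitochondrial folate genes. In glioblastoma, as in other fast-growing tumours, these pathways are known for supplying DNA replication.

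Values are log2 CPM (reads per 1e6 reads, on a log2 scale) that share 1 distribution within each table, and no level is set against one of the other table. Estimated library sizes were 15.2 to 29.5 M reads, except 3.35 M in Scr1 replicate 3 and 10.5 M in Scr2 replicate 4. MYC, the siRNA target, was read first. In experiment 1 its levels were 5.25, 4.73 and 3.84 in Myc1 against 4.41, 4.92, 5.66 and 6.75 in Scr1, a difference of −0.83 ± 0.544 (SE; limma p = 0.161, adjusted p = 0.996; exact permutation p = 0.314). It was −0.39 without Scr1 replicate 4 and −1.17 without Scr1 replicate 1. In experiment 2 the libraries labelled Myc2 had 5.79, 5.85, 5.56, 6.17 and 5.40, and Scr2 had 5.33, 5.14, 5.56 and 4.70. That difference was 0.57 ± 0.213 (SE; limma p = 0.0208, adjusted p = 0.370; exact permutation p = 0.0397) and went against the label, so every direction given below for Myc2 is that of the libraries labelled Myc2. VIM and FN1, 2 of the 10 markers listed for the U87 line, stood at 9.74 or above in every tumour. CHI3L1, of the same list, was much lower in experiment 2, at 3.98 to 6.89 in Myc2 and 2.25 to 3.76 in Scr2. In each experiment 7 of the 10 lay higher and 3 lower in the MYC siRNA group. The differences ran from −0.21 to 2.00 in experiment 1 and from −0.82 to 2.61 in experiment 2. Of the microglia and macrophage list, 4 of 9 markers entered a mean, which was 1.88 to 2.25 in Myc1, 2.02 to 2.38 in Scr1, 1.08 to 2.25 in Myc2 and 2.03 to 3.10 in Scr2. CD68 (7.28 to 8.58) and CSF1R (2.71 to 5.03) were its high members, while PTPRC and ITGAM, where listed, did not exceed 0.14. The 4 markers were not the same in both experiments, with ITGAM only in experiment 1 and PTPRC only in experiment 2. PTPRC was −5.16 to −1.09 in Myc2 and −2.21 to 0.14 in Scr2. CD68 and CSF1R differed by 0.019 to 0.030 in experiment 2, so the lower Myc2 mean came from markers at about 1 CPM or less. Both expression tables hold 0 mouse gene identifiers, so these are values of human genes. How mouse reads were handled was not found in the labels. Host cells of the mouse were not measured by genes of their own, and their part in the results was not tested. In such bulk samples fewer cells expressing a gene and less RNA per cell cannot be told apart.

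No member passed the test in either experiment, and neither did any other gene. With limma and Benjamini-Hochberg adjustment, 0 of 13933 genes were called in experiment 1 (0.0%) and 0 of 14208 in experiment 2 (0.0%), and 485 and 1898 genes had an unadjusted p under 0.05. Leaving out 1 tumour moved these counts to 181 (without Myc1 replicate 3) to 955 (without Scr1 replicate 3) and to 719 (without Scr2 replicate 4) to 3928 (without Scr2 replicate 2), and the second was 509 without Scr2 replicates 1 and 4, so the shares of all genes given below move with single tumours. In simulated data with the same genes it recovered 20% of changes of 1 log2 unit in experiment 1 and 38% in experiment 2. In experiment 1, 23 of the 33 members lay lower in Myc1 than in Scr1, against 50.5% of all genes tested, with a median difference of −0.11 log2 (all genes −0.0028), and −0.059 without Scr1 replicate 1. In experiment 2, 28 members lay lower in Myc2 than in Scr2, against 51.8% of all genes, with a median of −0.19 (all genes −0.018), and without Scr2 replicate 4 the count was 23 and the median −0.11. None of the members had an unadjusted p under 0.05 in experiment 1, where 1.96% of all genes were higher and 1.52% lower at that level. In experiment 2 there were 3 such members, all lower (TK1, PRPS1 and PHGDH), where 6.36% of all genes were lower and 7.0% higher. By a second reading, groups that do not overlap, experiment 1 gave 1 member (PAICS, higher), with 1.94% of all genes higher and 2.27% lower. Experiment 2 gave 3 (TK1, PRPS1 and ADSS, lower), with 1.61% of all genes lower and 1.4% higher. Leaving out 1 tumour at a time moved the experiment 2 count of members with an unadjusted p under 0.05 between 2 and 7, with 7 reached without Scr2 replicate 2 and 6 without Scr2 replicate 3. Scr2 replicates 1 and 4 had ribosomal protein means of 9.78 and 10.09, against 8.93 and 9.09 in the other Scr2 tumours. Without this pair 26 members lay lower in Myc2, the median was −0.095, and 1 had an unadjusted p under 0.05.

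**Figure D1:**
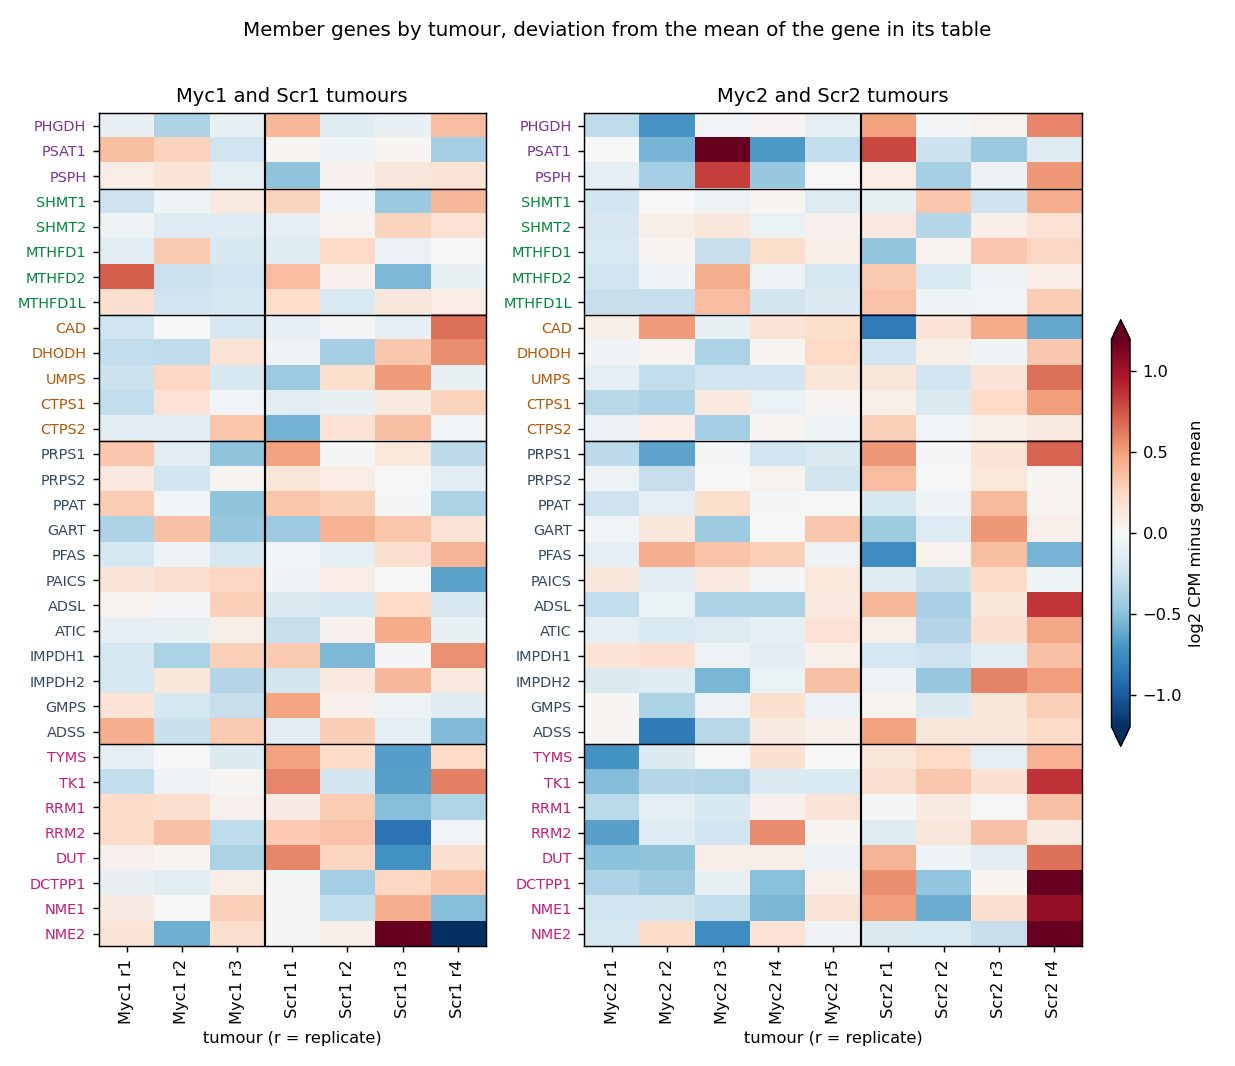
Each cell shows one gene in one tumour as log2 CPM minus the mean of that gene in its table (red higher, blue lower, colours saturating at 1.2). Rows are the 33 members in 5 role groups, and the black vertical line divides MYC siRNA from scramble tumours; Scr2 replicate 4 holds the highest value of 18 members, and PSAT1 and PSPH are highest in Myc2 replicate 3.

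Serine synthesis. PHGDH makes the first committed step from glycolysis into serine. In experiment 1 its levels were 7.62, 7.34 and 7.62 in Myc1 and 8.11, 7.56, 7.62 and 8.08 in Scr1. The groups overlapped, with a difference of −0.31 ± 0.213 (SE; limma p = 0.165, adjusted p = 0.996; exact permutation p = 0.286), the smallest p of the serine genes. In experiment 2 PHGDH stood at 7.04, 6.64, 7.31, 7.38 and 7.24 in Myc2 and 7.83, 7.33, 7.39 and 7.93 in Scr2. Only the tumour with 7.38 reached the range of Scr2, and the difference was −0.50 ± 0.201 (SE; limma p = 0.0301, adjusted p = 0.370; exact two-sided permutation p = 0.0317). Its size came down to −0.24 without Scr2 replicates 1 and 4, the pair of Scr2 tumours with the highest PHGDH.

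PSAT1, the aminotransferase of the second step, differed far more between tumours than between groups in experiment 2. Its levels in Myc2 were 6.15, 5.60, 7.75, 5.47 and 5.86, and in Scr2 6.96, 5.90, 5.71 and 6.002. Myc2 replicate 3 stood 1.98 above the mean of the other Myc2 tumours and Scr2 replicate 1 stood 1.09 above the mean of the other Scr2 tumours, while the group difference was 0.023 ± 0.431 (SE). Its within-group SD of 0.787 was the highest of the members in experiment 2, where the median over members was 0.277 and over all genes 0.381. In experiment 1 PSAT1 was 6.14, 6.05 and 5.54 in Myc1 and 5.80, 5.73, 5.80 and 5.38 in Scr1. There the difference was 0.23, with SDs of 0.325 in Myc1 and 0.198 in Scr1. PSPH, which removes the phosphate in the last step, was also highest in Myc2 replicate 3, at 5.31 against 4.02 to 4.48 in the other Myc2 tumours.

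The sequences upstream of PSAT1 and of MTHFD1L, the serine and folate genes that were both high in Myc2 replicate 3, are shown so that their letters can be read beside the values. Both windows end at the base before a RefSeq start site (GRCh38.p14, plus strand), hold no annotated exon and are given 5′ to 3′. PSAT1 is at chr9:78296875-78297124 and MTHFD1L at chr6:150866083-150866332, and capitals mark CCAAT, the box bound by NF-Y.
PSAT1: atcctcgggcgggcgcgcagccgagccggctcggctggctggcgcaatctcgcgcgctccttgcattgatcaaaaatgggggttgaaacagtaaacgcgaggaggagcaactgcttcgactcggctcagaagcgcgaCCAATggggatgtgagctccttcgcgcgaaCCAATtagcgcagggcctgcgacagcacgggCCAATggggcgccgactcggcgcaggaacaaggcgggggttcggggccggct
MTHFD1L: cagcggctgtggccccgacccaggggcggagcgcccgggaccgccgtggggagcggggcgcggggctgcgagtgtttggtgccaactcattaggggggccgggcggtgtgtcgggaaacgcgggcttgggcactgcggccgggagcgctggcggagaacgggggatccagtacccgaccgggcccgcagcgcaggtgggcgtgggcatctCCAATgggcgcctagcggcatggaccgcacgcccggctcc
PSAT1 holds the letters CCAAT 3 times in this window and MTHFD1L 1 time. MTHFD1L has 4 start sites in the RefSeq table, and this window is that of 1 of them. Of the 33 members, 29 had a promoter in the RefSeq table, with 46 start sites. CCAAT was found in 41.3% of these windows of 250 bases, against 32.0% of all 35116. CACGTG, the E-box that MYC with MAX is known to bind, was found before 6 of the 29 genes (MTHFD1, MTHFD1L, DHODH, PPAT, ATIC and DCTPP1), in 15.2% of member windows against 6.34% of all. For MTHFD1L it lies in the windows of 2 other start sites and not in the one printed. TGATGNAAT, a form of the element known for ATF4, was found before MTHFD1L alone of the members, in the windows of the same 2 other start sites and not in the one printed, and 0.888% of all windows hold it. Of the forms known for E2F, TTTGGCGC was found before GART and DUT (0.550% of all windows) and TTTCCCGC before PRPS2, TYMS and DUT (1.39%). Both strands were read, and no motif contains another. A match describes the letters only.

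Folate one-carbon enzymes. Of the 5 genes, 4 lay lower in Myc1 (median −0.11) and 5 in Myc2 (median −0.068), with no unadjusted p under 0.05. SHMT2, the mitochondrial enzyme that splits serine, had the smallest p in experiment 1. It was at 7.22, 7.11 and 7.11 in Myc1 and 7.16, 7.30, 7.54 and 7.44 in Scr1, a difference of −0.22 ± 0.193 (SE; limma p = 0.282, adjusted p = 0.996; exact permutation p = 0.114). MTHFD1L, which releases formate from mitochondria, had the smallest p in experiment 2. Its levels were 6.14, 6.14, 6.78, 6.19 and 6.25 in Myc2 and 6.76, 6.36, 6.38 and 6.72 in Scr2, a difference of −0.26 ± 0.178 (SE; limma p = 0.176, adjusted p = 0.461; exact permutation p = 0.159). Myc2 replicate 3 was the highest of all 9, just over Scr2 replicate 1. MTHFD2, its partner in the mitochondrion, was 6.78 in that tumour and 6.12 to 6.30 in the other Myc2 tumours. The cytosolic SHMT1 and MTHFD1 differed by −0.19 and −0.068 in experiment 2.

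Several amino acid and stress genes, picked after their values were seen, were also high in Myc2 replicate 3. In Myc2 replicate 3 ASNS (asparagine synthetase) was 6.93, against 4.03 to 4.42 in the other Myc2 tumours. SLC7A11, the cystine carrier, was 5.13 in it and −0.84 to 0.38 in the others. TRIB3 and SESN2, stress genes that ATF4 is known to induce, were 5.63 and 7.08, against 2.42 to 3.54 and 4.19 to 4.99. Scr2 replicate 1 was second in each of these genes, with ASNS at 5.98, SLC7A11 at 2.78, TRIB3 at 4.25 and SESN2 at 5.62. PHGDH did not share the pattern, at 7.31 in Myc2 replicate 3, and ATF4 mRNA was 7.84 there against 7.40 to 7.65 in the other Myc2 tumours. Scr2 replicate 1 was the highest of the 9 tumours in ATF4 (8.22), CHAC1 (3.08, against 2.74 in Myc2 replicate 3), DDIT3 (6.04 against 5.65) and SLC3A2 (7.44 against 7.21). Over the whole lists, Myc2 replicate 3 was the highest tumour in 6 of 11 serine, glycine and glutamine transport genes and in 3 of 10 integrated stress genes, where Myc2 replicate 2 was highest in 4. The mean of the 15 hypoxia genes was 5.89 in that tumour and 7.27 to 7.84 in the other Myc2 tumours, and its part in the result was not tested.

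**Figure D2:**
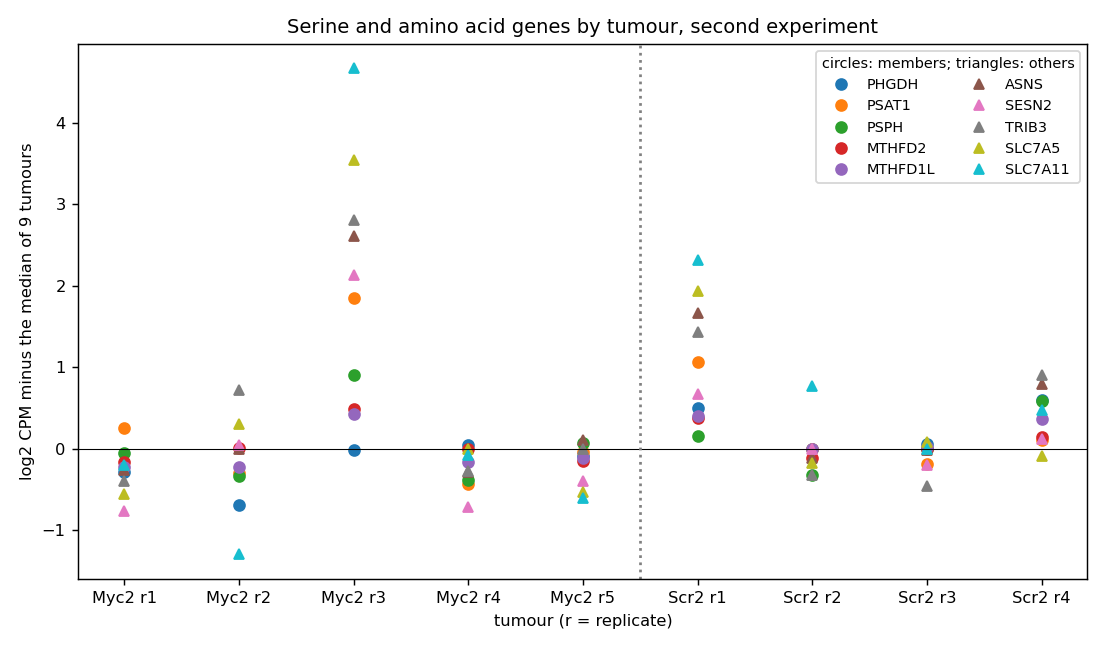
Points are log2 CPM minus the median of the 9 tumours of experiment 2, for 5 members (circles) and 5 amino acid and stress genes (triangles). In Myc2 replicate 3 the points other than PHGDH are above 0, and Scr2 replicate 1 holds most of the next highest.

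Pyrimidine synthesis. CAD carries the first 3 activities of the pathway in one protein. In Myc1 it was 4.83, 5.07 and 4.86, and in Scr1 4.97, 5.05, 4.95 and 5.73. The groups differed by −0.25 ± 0.253 (SE; limma p = 0.334, adjusted p = 0.996; exact permutation p = 0.400), and −0.067 without Scr1 replicate 4, the tumour with the highest MYC. In experiment 2 CAD was 5.43, 5.87, 5.27, 5.52 and 5.57 in Myc2 and 4.52, 5.52, 5.81 and 4.75 in Scr2. Scr2 replicates 1 and 4 were the low pair, and the difference of 0.38 ± 0.261 (SE; limma p = 0.170, adjusted p = 0.455; exact permutation p = 0.262) became −0.13 without them. UMPS, which completes UMP, had the smallest p of the group in experiment 2. It was at 5.32, 5.14, 5.19, 5.20 and 5.58 in Myc2 and 5.58, 5.20, 5.59 and 6.09 in Scr2, a difference of −0.33 ± 0.193 (SE; limma p = 0.113, adjusted p = 0.403; exact permutation p = 0.0873), and −0.17 without Scr2 replicate 4. CTPS1 and CTPS2, the CTP synthases, differed by −0.29 and −0.19, and DHODH, the mitochondrial step, by −0.053.

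Purine synthesis. PRPS1 supplies PRPP, the sugar phosphate on which purines are built. In Myc2 its levels were 5.21, 4.89, 5.50, 5.28 and 5.35, and in Scr2 6.04, 5.51, 5.68 and 6.22. The highest Myc2 tumour lay just under the lowest Scr2 tumour, so the groups did not overlap, by a difference of −0.62 ± 0.190 (SE; limma p = 0.00752, adjusted p = 0.370; exact two-sided permutation p = 0.00794, the smallest its arrangements allow). Without Scr2 replicates 1 and 4 it was −0.35. In experiment 1 PRPS1 was 5.90, 5.44 and 5.09 in Myc1 and 6.06, 5.56, 5.70 and 5.26 in Scr1, a difference of −0.17 ± 0.261 (SE).

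ADSS, now also called ADSS2, takes IMP towards AMP. In Myc2 it was 5.49, 4.62, 5.13, 5.57 and 5.53 and in Scr2 5.95, 5.60, 5.60 and 5.69, without overlap. The difference was −0.44 ± 0.212 (SE; limma p = 0.0609, adjusted p = 0.371; exact two-sided permutation p = 0.0556). In experiment 1 its point estimate had the opposite sign, with 5.61, 4.90 and 5.48 in Myc1 and 5.03, 5.47, 5.06 and 4.64 in Scr1, a difference of 0.28 ± 0.266 (SE; limma p = 0.315, adjusted p = 0.996; exact permutation p = 0.371).

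PAICS, which does 2 steps in the middle of the purine ring's assembly, was the one member whose groups did not overlap in experiment 1. Its levels were 7.06, 7.09 and 7.15 in Myc1 and 6.86, 6.99, 6.90 and 6.26 in Scr1. The difference was 0.35 ± 0.220 (SE; limma p = 0.135, adjusted p = 0.996; exact two-sided permutation p = 0.0857), and 0.18 without Scr1 replicate 4. In experiment 2 PAICS was 7.05, 6.79, 7.03, 6.90 and 7.04 in Myc2 and 6.77, 6.65, 7.14 and 6.86 in Scr2, with overlap.

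PFAS works earlier in the same ring assembly. In experiment 2 it was 5.47, 6.01, 5.92, 5.86 and 5.52 in Myc2 and 4.83, 5.62, 5.94 and 5.02 in Scr2, again with Scr2 replicates 1 and 4 lowest. Without them its difference went from 0.40 to −0.024. Of the 12 purine genes, 9 lay lower in Myc1 (median −0.15) and 9 lower in Myc2 (median −0.15). The other members of the group differed by −0.28 (GART) to 0.18 (ADSL) in experiment 1 and by −0.45 (ADSL) to 0.11 (IMPDH1) in experiment 2. Without Scr2 replicate 4 these 2 values were −0.25 and 0.24, and ADSL was −0.077 without Scr2 replicates 1 and 4.

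Deoxynucleotide supply. TK1 salvages thymidine in dividing cells and had the smallest p of the members. In Myc2 its levels were 7.08, 7.26, 7.24, 7.44 and 7.42, and in Scr2 7.80, 7.93, 7.79 and 8.47. All Myc2 tumours lay below all Scr2 tumours, by −0.71 ± 0.176 (SE; limma p = 0.00186, adjusted p = 0.370; exact two-sided permutation p = 0.00794). Leaving out 1 tumour at a time kept it between −0.78 and −0.55, and without Scr2 replicates 1 and 4 it was −0.57. In experiment 1 it was 7.52, 7.77 and 7.83 in Myc1 and 8.40, 7.59, 7.16 and 8.42 in Scr1, where Scr1 spanned the whole range of Myc1.

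RRM1, the large subunit of ribonucleotide reductase, had the smallest p of the group in experiment 1. It was at 7.23, 7.22 and 7.07 in Myc1 and 7.11, 7.32, 6.50 and 6.65 in Scr1, with a difference of 0.28 ± 0.230 (SE; limma p = 0.247, adjusted p = 0.996; exact permutation p = 0.343). Its partner RRM2 stood at 8.23, 8.36 and 7.71 in Myc1 against 8.32, 8.35, 7.12 and 7.98 in Scr1. All 8 genes of the group lay lower in Myc2 than in Scr2, with a median of −0.35, and 5 of 8 lower in Myc1 with a median of −0.11, which was −0.0036 without Scr1 replicate 4. DCTPP1 and DUT, which hydrolyse dCTP and dUTP, differed by −0.60 and −0.40 in experiment 2, and TYMS, which makes thymidylate, by −0.31. DCTPP1 and DUT were −0.30 and −0.25 without Scr2 replicate 4, and −0.041 and −0.083 without Scr2 replicates 1 and 4. TYMS was −0.17 without Myc2 replicate 1 and −0.20 without Scr2 replicates 1 and 4.

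Scr2 replicate 4 was the highest of the 9 tumours in 7 of the 8 genes, and in 18 of the 33 members, where 27.1% of all genes were highest in it. It had a G1/S score (mean of 26 replication genes) of 6.76, the highest of experiment 2, and a ribosomal protein mean of 10.09, also the highest. Without Scr2 replicates 1 and 4 the median of the group was −0.11. Markers of cell division lay lower in Myc2 alongside it: 22 of 26 replication genes (median −0.31) and 19 of 20 G2/M genes (median −0.38). Single tumours held most of the extremes. Scr2 replicate 4 was highest in 19 replication genes, Scr2 replicate 2 highest in 17 G2/M genes, and Myc2 replicate 1 lowest in 15. The G2/M means overlapped, at 6.78 to 7.61 in Myc2 and 7.38 to 8.12 in Scr2. CCNB1, a mitotic cyclin, was 7.05, 7.52, 7.47, 7.56 and 7.67 in Myc2 and 7.90, 8.23, 7.85 and 8.16 in Scr2, without overlap (−0.58 ± 0.170 SE; limma adjusted p = 0.370). GINS2, of the replicative helicase, differed by −1.02 ± 0.368 (SE; limma adjusted p = 0.370). All 24 ribosomal protein genes lay lower in Myc2 (median −0.31), with RPS27 at −1.03 ± 0.315 (SE). Scr2 replicate 4 was the highest tumour in 22 of them. Their means overlapped between the groups, at 8.93 to 10.09 in Scr2 and 8.76 to 9.28 in Myc2. All 15 hypoxia genes lay higher in Myc2 (median 0.98), with VEGFA at 2.80 ± 0.606 (SE). Their means overlapped, at 5.89 to 7.84 in Myc2 and 5.77 to 6.65 in Scr2, with Myc2 replicate 3 at 5.89. Of the integrated stress genes 8 of 10 lay higher in Myc2, and CEBPB, a stress-responsive factor, differed by 1.21 ± 0.221 (SE). In experiment 1, 22 of 26 replication genes lay lower in Myc1 (MCM2 −0.53 ± 0.265 SE) as did 12 of 20 G2/M genes, although CCNB1, with the smallest p of these, lay higher (0.30 ± 0.273 SE). There 11 of 15 hypoxia genes (BNIP3L 0.95 ± 0.342 SE), 22 of 24 ribosomal protein genes and 6 of 10 stress genes (VLDLR 0.55 ± 0.288 SE) lay higher. Myc1 replicate 3 was highest in 10 of the hypoxia genes, and Scr1 replicate 4 was lowest in 22 of the ribosomal protein genes. Hypoxia means overlapped, at 5.95 to 7.18 in Myc1 and 5.67 to 6.33 in Scr1. So did ribosomal protein means (9.51 to 9.74 and 8.91 to 9.68) and stress means (5.04 to 5.33 and 4.93 to 5.40). In experiment 1 Scr1 replicate 3, the shallow library, had the lowest TYMS, TK1, RRM1, RRM2 and DUT, with a G2/M score of 6.004 against 6.65 to 7.67 in the other tumours. The part of these shifts in the members' values was not tested.

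NME1 and NME2 are near-identical neighbours with a readthrough transcript, so their reads could be split between them by the counting and both values are uncertain. NME1 differed by −0.51 ± 0.284 (SE) and NME2 by −0.27 ± 0.327 (SE) in experiment 2. NME1 was −0.26 without Scr2 replicate 4 and −0.027 without Scr2 replicates 1 and 4, and NME2 was 0.092 and 0.11.

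**Figure D3:**
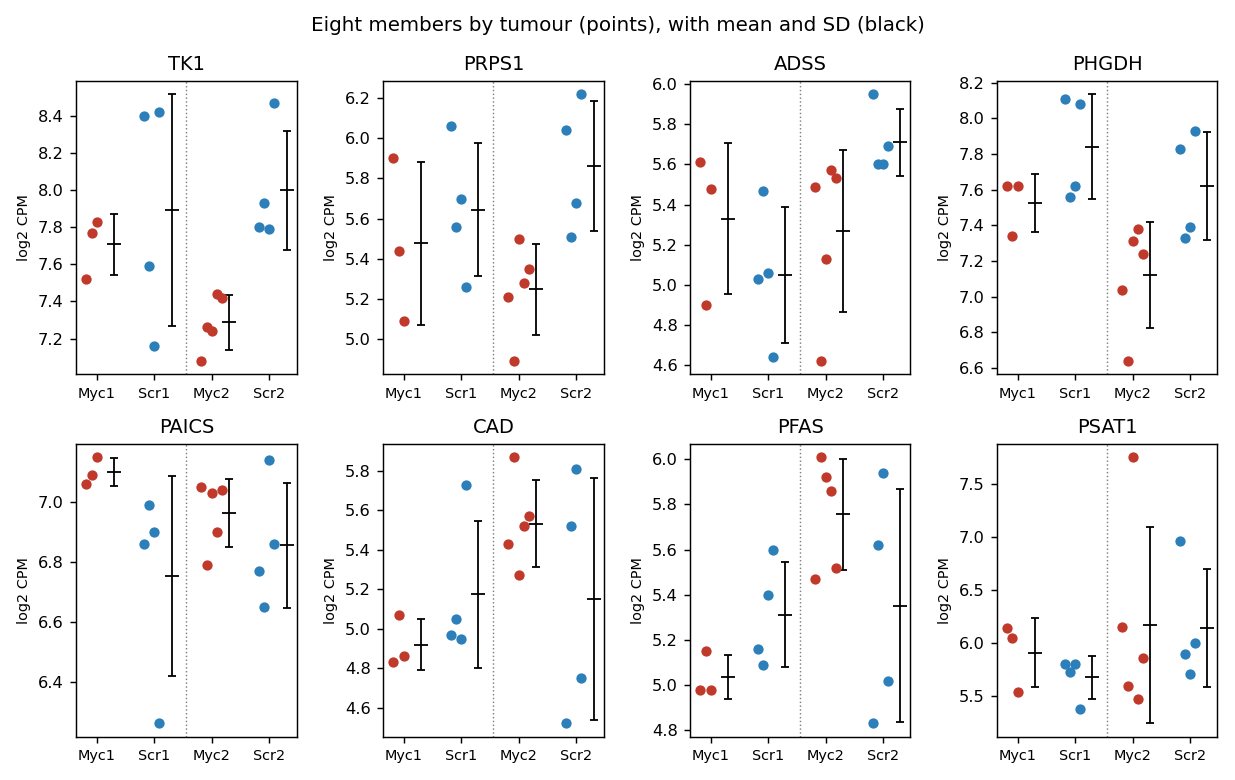
Points are tumours (log2 CPM, y axis) in Myc1, Scr1, Myc2 and Scr2, with mean and SD in black; the dotted line divides the tables, whose levels are not comparable. TK1, PRPS1 and ADSS do not overlap between Myc2 and Scr2, nor PAICS between Myc1 and Scr1; PSAT1 overlaps in both experiments.

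**Figure D4:**
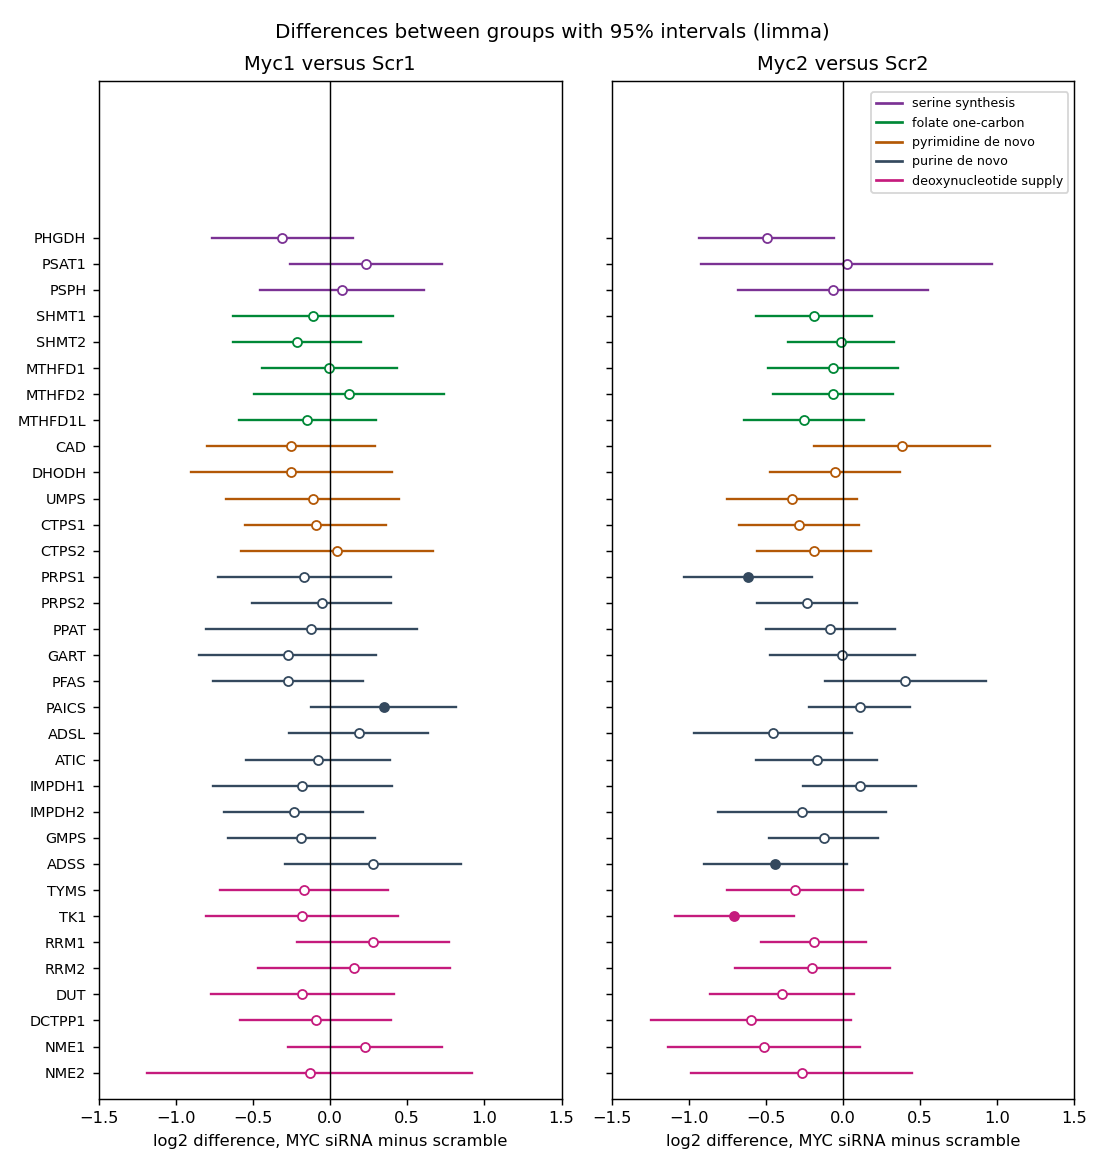
Points are the log2 differences (MYC siRNA minus scramble) and lines their 95% limma intervals, for all 33 members coloured by role, with filled points where the groups do not overlap. Intervals include 0 except those of TK1, PRPS1 and PHGDH in experiment 2.

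siRNA number and experiment go together and cannot be told apart. Compared directly, no member had a difference between the effects of the 2 siRNAs that passed the test (limma, 0 of 13656 genes called, 0.0%). The difference of effects was positive in 25 of 33 members (51.4% of all genes), with a median of 0.18 (all genes 0.019). Without Scr2 replicate 4 these were 19 members and 0.062. ADSS alone had an unadjusted p under 0.05 for it, where 8.75% of all genes did. Its difference of effects was 0.72 ± 0.338 (SE; limma adjusted p = 0.528). For the mean of the 2 effects, 26 members lay below 0 (53.0% of all genes), and 3 had an unadjusted p under 0.05 (7.97% of all genes). They were PHGDH (−0.40 ± 0.147 SE), TK1 (−0.45 ± 0.176 SE) and PRPS1 (−0.39 ± 0.160 SE), with limma adjusted p of 0.607, 0.623 and 0.623. The same 3 were below 0.05 unadjusted in experiment 2, and no member was in experiment 1. MYC itself lay lower in Myc1 than in Scr1 and higher in Myc2 than in Scr2.

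Across tumours, levels of the members were also set against MYC. In experiment 1 (n = 7) PFAS had the highest Pearson r, 0.846 (exact permutation p = 0.0153), with a Spearman rho of 0.643 (exact permutation p = 0.139). PAICS had the lowest, −0.829 (exact permutation p = 0.0284), with a rho of −0.607 (exact permutation p = 0.167). Adjusted over the 33 relations both Pearson p values were 0.312. Without the 2 tumours farthest from the median MYC, r was 0.416 for PFAS and 0.043 for PAICS, so the relation of PAICS rests on those tumours. In experiment 2 (n = 9) PFAS was again highest (r = 0.637, exact permutation p = 0.0653, adjusted 0.195; rho = 0.600, exact permutation p = 0.0968). TK1 was lowest (r = −0.815, exact permutation p = 0.00795, adjusted 0.175; rho = −0.683, exact permutation p = 0.0503). Without the 2 farthest tumours r was 0.441 for PFAS and −0.803 for TK1. These p values took the tumours of both groups together, although MYC lay higher and TK1 lower in Myc2 than in Scr2. Taken as deviations from the group means, PFAS had an r of 0.806 in experiment 1 and 0.456 in experiment 2. PAICS had −0.775 in experiment 1, and TK1 −0.583 in experiment 2, where DCTPP1 was lowest at −0.648.

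Per transcript length, IMPDH2 (IMP dehydrogenase, the step towards GMP) and DUT were among the 3 highest members in each group. The other place was held by NME1 in Myc1, Scr1 and Scr2 and by TYMS in Myc2, at 159 CPM per kb of transcript against 157 for NME1. IMPDH2 was first in Scr1 with a geometric mean of 249.6 CPM per kb of transcript, NME1 in Myc1 with 243, and DUT in Myc2 and Scr2 with 190.2 and 250.3. DUT, NME1 and TK1 lay at 211, 208 and 206 CPM per kb in Scr1, with SDs of 0.565, 0.405 and 0.620 log2, and so did not differ beyond their spread. Among the serine genes PHGDH was highest in Scr1, at 122 CPM per kb, then PSAT1 at 28.4 and PSPH at 12.2. PPAT, which commits PRPP to purines, was lowest in each of the 4 groups, at 2.40 in Myc1, 2.62 in Scr1, 3.56 in Myc2 and 3.77 CPM per kb in Scr2. DHODH, CTPS2 and CAD stood just above it in Scr1.

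**Figure D5:**
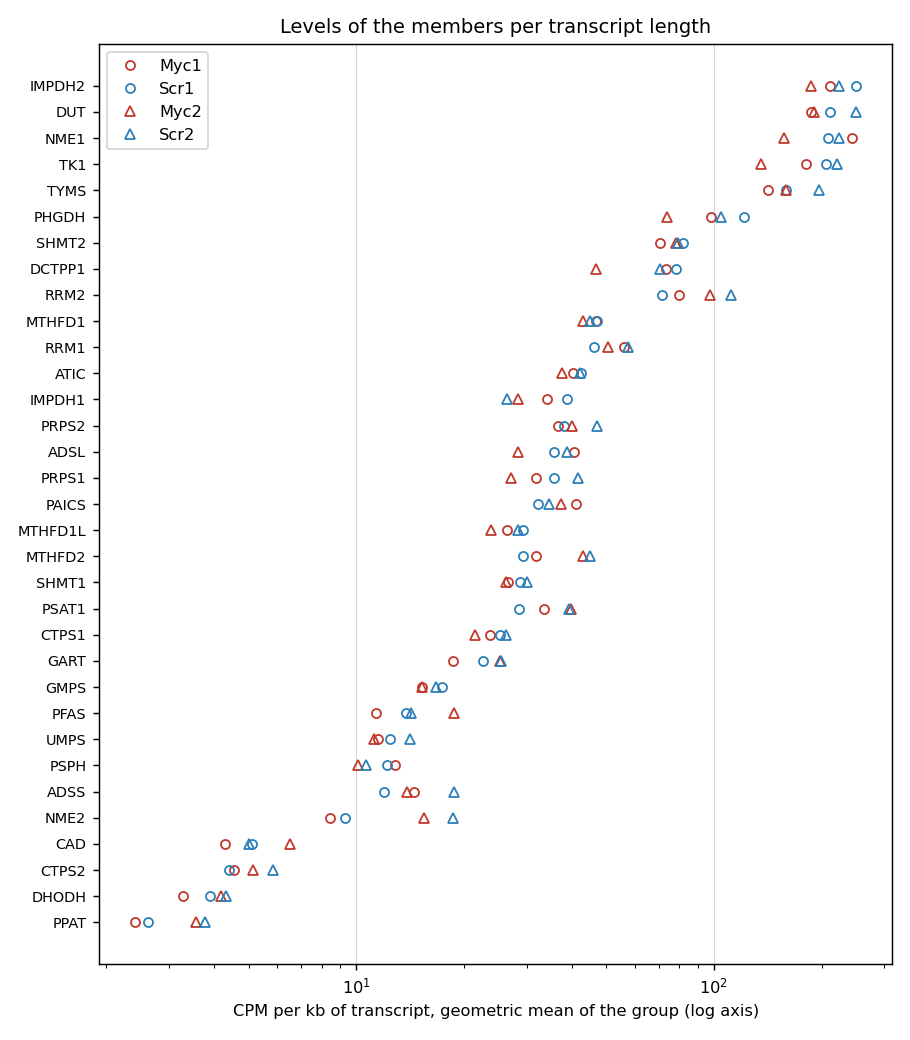
Each point is the geometric mean of a group in CPM per kb of transcript (log axis), with genes ordered by Scr1; circles are experiment 1 and triangles experiment 2, and only points of the same shape share a table. IMPDH2 and DUT lead in Scr1, and PPAT is at the bottom in every group.

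Beyond the members, 82 further genes of these pathways were listed, of which 74 were tested in each experiment. In experiment 1, 46 lay higher in Myc1, and 3 higher and 2 lower had an unadjusted p under 0.05, where 1.96% of all genes were higher and 1.52% lower. AK4, a mitochondrial adenylate kinase, was 5.92, 5.73 and 6.54 in Myc1 and 5.48, 5.46, 5.60 and 5.11 in Scr1, without overlap (0.65 ± 0.245 SE; limma adjusted p = 0.996; exact permutation p = 0.0286). NME3, a nucleoside diphosphate kinase, was 3.49, 3.45 and 4.79 in Myc1 and 2.56, 2.84, 3.82 and 2.81 in Scr1 (0.90 ± 0.397 SE). CMPK1, which phosphorylates UMP and CMP, was 7.06, 6.79 and 6.98 in Myc1 and 6.33, 7.05, 6.25 and 5.75 in Scr1 (0.60 ± 0.269 SE). AK4 alone of the 3 had all Myc1 tumours above all Scr1 tumours. AMPD2, which deaminates AMP, was 5.99, 6.48 and 6.14 in Myc1 and 6.44, 6.74, 7.06 and 7.23 in Scr1 (−0.66 ± 0.234 SE). The nucleoside carrier SLC29A1 was 7.42, 7.56 and 7.48 in Myc1 and 7.96, 7.90, 7.62 and 8.42 in Scr1, without overlap (−0.49 ± 0.215 SE). SLC6A9, a glycine carrier, was 1.60, 3.40 and 1.66 in Myc1 and 2.26, 3.43, 3.29 and 4.04 in Scr1 (−1.03 ± 0.494 SE). These 5 genes also had an adjusted p of 0.996 with limma.

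In experiment 2, 46 of the 74 lay lower in Myc2 (median −0.13), and 3 higher and 7 lower had an unadjusted p under 0.05, where 7.0% of all genes were higher and 6.36% lower. SLC19A1, the reduced folate carrier, was 3.95, 3.65, 3.85, 4.17 and 3.83 in Myc2 and 4.29, 4.22, 4.60 and 4.40 in Scr2, without overlap (−0.49 ± 0.175 SE; limma adjusted p = 0.370; exact permutation p = 0.0159). ODC1, the first enzyme of polyamine synthesis and a textbook MYC target, was 6.44, 6.85, 7.60, 7.31 and 7.40 in Myc2 and 7.99, 7.36, 7.87 and 8.03 in Scr2 (−0.70 ± 0.248 SE). ADK, adenosine kinase, was 5.84, 5.77, 6.12, 5.89 and 6.11 in Myc2 and 6.70, 6.02, 6.34 and 6.98 in Scr2 (−0.56 ± 0.199 SE). The last pair of genes overlapped between the groups. SLC38A1, a glutamine carrier, was 4.84, 6.38, 7.84, 4.81 and 5.41 in Myc2 and 4.79, 5.35, 4.06 and 3.61 in Scr2 (1.40 ± 0.587 SE), highest in Myc2 replicate 3. MAT2A, which makes S-adenosylmethionine, was 8.11, 8.57, 8.07, 8.39 and 8.30 in Myc2 and 6.87, 8.33, 8.15 and 6.45 in Scr2 (0.84 ± 0.354 SE). AMT, of the glycine cleavage system, was 3.99, 4.16, 3.46, 3.79 and 3.54 in Myc2 and 3.07, 3.28, 3.63 and 1.02 in Scr2 (1.04 ± 0.454 SE). The low MAT2A values were those of Scr2 replicates 1 and 4, which were also lowest in CAD and PFAS, and all 6 pathway genes had an adjusted p of 0.370 with limma.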

How the data were processed

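RNA from 16 tumours of 4 groups was read from 1 deposited table for each experiment. The authors deposited log2 values per human Ensembl gene. Taken back from log2 they sum to 998367 to 998392 (experiment 1) and 995054 to 995076 (experiment 2) and share one distribution within a table, so they were read as log2 CPM, quantile-normalized. STAR 2.6.0b, Picard and bcl2fastq 2.20.0 are named in the submitters' processing notes, as are builds hg19 and mm10, without their roles; no counting tool is named. Quantile normalization hides a change shared by most genes.

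Genes with at least 1 CPM in 3 (experiment 1) or 4 (experiment 2) samples were fitted with limma 3.58.1 in R 4.3.3 (trend and robust), adjusted by Benjamini-Hochberg over all genes at 0.05. limma was tested on simulated data. Every member passed the CPM filter. Levels per kb used the median protein-coding transcript length in GENCODE release 29. Library sizes were estimated from the spacing of low values, and were off by at most 4.09% and 4.2% in simulation.

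The tumours of a group are separate mice by their titles, and replicate numbers follow accession order, so they pair nothing. The members and gene lists were chosen with earlier results of these data known. Genes given with every sample's value were, in each experiment and role group, the member with the smallest p, plus members with an unadjusted p under 0.05 or groups that do not overlap, and from the pathway lists the 3 higher and 3 lower genes with the smallest p. For MYC likeness the members with the highest and lowest Pearson r were named, and for each list of other cell processes the gene with the smallest p, of which 1 is not reported here. PSAT1, PSPH, MTHFD2, PFAS, ASNS, SLC7A11, SLC7A5, SLC3A2, CHAC1, DDIT3, TRIB3, SESN2, RRM2 and ATF4 were named after their values were seen. MTAP, CDKN2A and CDKN2B, listed as genes deleted in U87 cells, were found in neither expression table and so were not analysed here.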

Additional observations from a re-analysis of the deposited data

Results flagged for a closer look

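Dixon's test at 95% was applied to 102 groups of tumour values, where chance gives about 5% of groups. A tumour stood apart from the rest in 7, all of them of members. Nothing is concluded for Myc1, which has 3 tumours. CAD in Scr1 replicate 4 stood at 5.73 log2 CPM, above 4.95 to 5.05 in the other Scr1 tumours. PAICS in the same tumour was the low one, at 6.26 against 6.86 to 6.99. ADSL in Scr1 replicate 3, the shallow library, was 6.30 against 5.87 to 5.90. MTHFD2 and MTHFD1L in Myc2 replicate 3 were both at 6.78, against 6.12 to 6.30 and 6.14 to 6.25. ATIC in Myc2 replicate 5 was 6.65 against 6.29 to 6.37. NME2 in Scr2 replicate 4 was 5.33 against 3.83 to 3.93.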

How the results depend on the processing

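No paired analysis was possible because the labels give no replicate numbers shared between groups. No member passed the adjusted p threshold in any setting run (smallest adjusted p 0.710 in experiment 1 and 0.108 in experiment 2). The lowest-row choice for a repeated symbol was not run, since no member has more than 1 row. Called genes among all tested were 1 with at least 5 CPM in experiment 1, 0 to 2 when leaving out 1 tumour there, 0 to 9 in experiment 2 (9 without Myc2 replicate 3) and 2 without Scr2 replicates 1 and 4. Members with an unadjusted p under 0.05 in experiment 2 ranged from 2 to 7 when leaving out 1 tumour (7 without Scr2 replicate 2), and were 1 without Scr2 replicates 1 and 4. For the difference of effects the count was 0 without trend and robust settings, 0 with array weights and 0 to 5 when leaving out 1 tumour. With array weights MTHFD1 in experiment 1 (0.0092) and DHODH and NME2 in experiment 2 (0.031 and 0.042) changed sign. Without Scr2 replicates 1 and 4, so did PSPH (0.20), SHMT2 (0.12), MTHFD2 (0.094), CAD (−0.13), PFAS (−0.024) and NME2 (0.11). In experiment 1, leaving out 1 tumour turned the sign of 14 members, whose lowest and highest values were PSPH −0.074 to 0.15, SHMT1 −0.27 to 0.0079, MTHFD1 −0.16 to 0.088, MTHFD2 −0.20 to 0.29, UMPS −0.28 to 0.041, CTPS1 −0.21 to 0.028, CTPS2 −0.14 to 0.17, PRPS1 −0.38 to 0.026, PRPS2 −0.13 to 0.041, PPAT −0.31 to 0.084, ATIC −0.18 to 0.060, RRM2 −0.12 to 0.35, DCTPP1 −0.24 to 0.0028, NME2 −0.55 to 0.30. In experiment 2, leaving out 1 tumour turned the sign of 9 members, whose lowest and highest values were PSAT1 −0.37 to 0.30, PSPH −0.28 to 0.095, SHMT2 −0.13 to 0.041, MTHFD1 −0.24 to 0.029, MTHFD2 −0.18 to 0.029, DHODH −0.14 to 0.046, PPAT −0.16 to 0.030, GART −0.15 to 0.17, NME2 −0.41 to 0.092. The cause was not tested.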
